A study of Rattus norvegicus with 12 samples.

Results

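The data described here are the transcript levels of 9 genes of the plasminogen activation system and of pericellular proteolysis in primary cortical neuroglial cultures of the rat. The 9 genes are Plau, Plat, Plaur, Serpine2, Serpinb2, Mmp14, Adamts1, Timp2 and Timp3. They were chosen by name, with measured levels of these libraries already known. All 9 were found among the 28111 gene names of the files, each as 1 row. What the choice rests on is therefore given below as a description. For the 9 genes, a difference between groups is given with its standard error or 95% interval and no p-value of its own, and counts of calls stand beside the share of all genes called as a description only.

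The cultures were grown from the cortex of Wistar rat pups and held neurons and glial cells. The labels give pups of postnatal day 0, while the methods of the study give postnatal days 1 to 2. Cytosine arabinoside, which kills dividing cells, had been added on day 3 in vitro in all groups. RNA was taken at 10 days in vitro, 4 h after treatment. The intact control (IC) received no conditioned medium product, and the other groups received material released by glial progenitor cells that had been derived from human induced pluripotent stem cells of a healthy donor. EV denotes extracellular vesicles of these cells at 10 µg/mL. The other 2 treatments were the total secretome at 45 µg/mL and, at 15 µg/mL, the proteins of the conditioned medium between 3 and 100 kDa. Each of the 4 groups had 3 libraries. The doses differ between treatments, so a difference between 2 treatments is a difference between those preparations at those doses. The human cells are 1 donor line. The study states that its experiments were repeated on unrelated cultures, but the labels do not tie each library to a culture, so the p-values below measure only the spread between these libraries.

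Plasminogen is an inactive precursor that is cut to plasmin by either of 2 activators, the urokinase type (encoded by Plau) and the tissue type (encoded by Plat). Urokinase acts mostly at the cell surface, bound to its receptor (encoded by Plaur). Serpins such as protease nexin-1 (encoded by Serpine2) and plasminogen activator inhibitor-2 (encoded by Serpinb2) block the activators, while tissue inhibitors of metalloproteinases (encoded by the Timp genes) block the metalloproteinases that act alongside plasmin on the extracellular matrix. In the brain, tissue plasminogen activator is known for its part in synaptic plasticity and in excitotoxic injury, and urokinase and its receptor are best known as genes induced by injury.

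Because Plau, Plaur, Serpinb2 and Adamts1 had low levels in IC and higher levels in treated libraries, their start-site regions are shown here. Each is 300 bases, from 250 before to 50 after the annotated start, read 5′ to 3′ on the strand of the gene, from the RefSeq annotation of the GRCr8 build. Of the 9 genes, 7 had an entry in this set. Plat and Mmp14 had none. Capitals mark letters of the motifs searched on both strands, namely the AP-1 element TGACTCA, the cyclic AMP element TGACGTCA, the TATA box TATAAA, the GC box GGGCGG, the STAT element TTCNNNGAA and the SRF element. The Plau region lies on chr15:3511938-3512237, minus strand. The Plaur region lies on chr1:89181113-89181412, plus strand. The Serpinb2 region lies on chr13:24055771-24056070, plus strand. The Adamts1 region lies on chr11:38427335-38427634, minus strand.
Plau: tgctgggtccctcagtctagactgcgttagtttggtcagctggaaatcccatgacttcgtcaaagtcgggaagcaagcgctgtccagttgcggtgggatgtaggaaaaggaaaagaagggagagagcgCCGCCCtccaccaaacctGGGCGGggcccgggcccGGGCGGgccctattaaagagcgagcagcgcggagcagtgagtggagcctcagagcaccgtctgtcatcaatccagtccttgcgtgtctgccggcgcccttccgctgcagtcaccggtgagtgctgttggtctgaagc
Plaur: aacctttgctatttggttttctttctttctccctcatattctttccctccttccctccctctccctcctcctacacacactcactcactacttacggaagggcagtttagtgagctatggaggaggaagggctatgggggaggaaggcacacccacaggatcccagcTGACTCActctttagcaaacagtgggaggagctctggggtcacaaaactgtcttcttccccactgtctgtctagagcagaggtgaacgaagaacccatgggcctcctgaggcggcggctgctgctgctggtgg
Serpinb2: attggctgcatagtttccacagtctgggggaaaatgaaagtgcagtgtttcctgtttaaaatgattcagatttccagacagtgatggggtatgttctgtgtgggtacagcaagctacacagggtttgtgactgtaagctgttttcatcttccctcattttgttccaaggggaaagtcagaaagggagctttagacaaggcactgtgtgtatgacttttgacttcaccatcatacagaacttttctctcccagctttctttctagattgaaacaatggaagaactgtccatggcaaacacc
Adamts1: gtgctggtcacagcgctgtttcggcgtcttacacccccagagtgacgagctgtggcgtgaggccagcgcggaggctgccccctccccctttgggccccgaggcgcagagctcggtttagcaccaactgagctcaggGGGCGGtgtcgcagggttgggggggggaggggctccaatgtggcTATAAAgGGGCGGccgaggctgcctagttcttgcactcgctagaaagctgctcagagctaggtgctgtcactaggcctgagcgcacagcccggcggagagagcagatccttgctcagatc
The Plau region held the GC box 3 times, with first bases at -122, -104 and -87 from the start site. The Plaur region held 1 AP-1 element, at -83, which was the only match to that element among the 7 genes. AP-1 elements were present in 4.63% of the 33469 regions of this length in the same annotation. The Adamts1 region held 1 TATA box, at -70, and 2 GC boxes, at -114 and -63. The TATA box was present in 14.2% of all regions and the GC box in 33.1%. The GC box was found in 5 of the 7 genes (Plau, Serpine2, Adamts1, Timp2 and Timp3), the first and last of its matches in Serpine2 starting at -217 and -55. None of these 6 motifs was found in the Serpinb2 region, whose GC content of 42.7% was the lowest of the 7, against 77% for Serpine2. No match to the cyclic AMP, STAT or SRF letters was found in the 7 regions, and these were present in 1.83%, 8.87% and 1.64% of all regions. Such matches are descriptions of letters in these windows and were not tested as binding sites.

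The values are TPM, transcript abundances divided by transcript length and scaled to the same total in every library, so that levels can be compared between genes. Depth is unknown from such values. Between 14890 and 15392 of the 32285 rows were above 0 in each library. The ribosomal protein gene Rps6 was listed at 0 in all 12 libraries, so that a listed 0 may be a failed estimate. Neuronal markers (10 genes) summed to between 2573 and 2729 TPM in IC, astrocyte markers (8 genes) to between 1019 and 1465 TPM and markers of the oligodendrocyte lineage (8 genes) to between 183 and 236 TPM, so the labelled neuroglial makeup was seen in the data. The 11 microglial markers together reached at most 3.41 TPM, the 7 endothelial markers at most 1.16 TPM and the 10 fibroblast and mural markers at most 4.49 TPM in any library. Ptprc, which encodes the leukocyte antigen CD45, was listed at 0 in all 12 libraries.

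In IC, the most abundant transcripts of the set were those of 2 inhibitors. Timp2 stood at 233 ± 9.70 TPM (SD, n = 3 here and below) and Serpine2 at 201 ± 36.9 TPM, and the ranges of these neighbours overlapped. The membrane-bound metalloproteinase gene Mmp14 followed at 36.8 ± 11.9 TPM, then Timp3 at 19.5 ± 4.24 TPM and Plat at 7.61 ± 1.11 TPM, with no overlap between any of these 3 and its neighbours. The urokinase side was near the lower end of the files. Plaur was at 0.620 ± 0.631 TPM, Plau at 0.393 ± 0.455 TPM and Adamts1 at 0.259 ± 0.0365 TPM, with overlapping ranges, and Serpinb2 was listed at 0 in all 3 libraries. After the 3–100 kDa proteins, Plau, at 64.2 ± 29.3 TPM, came next in this order after Timp2 (202 ± 18.7 TPM) and Serpine2 (201 ± 33.5 TPM). The ranges of Plau, Plat and Timp3 overlapped there.

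**Figure D1:**
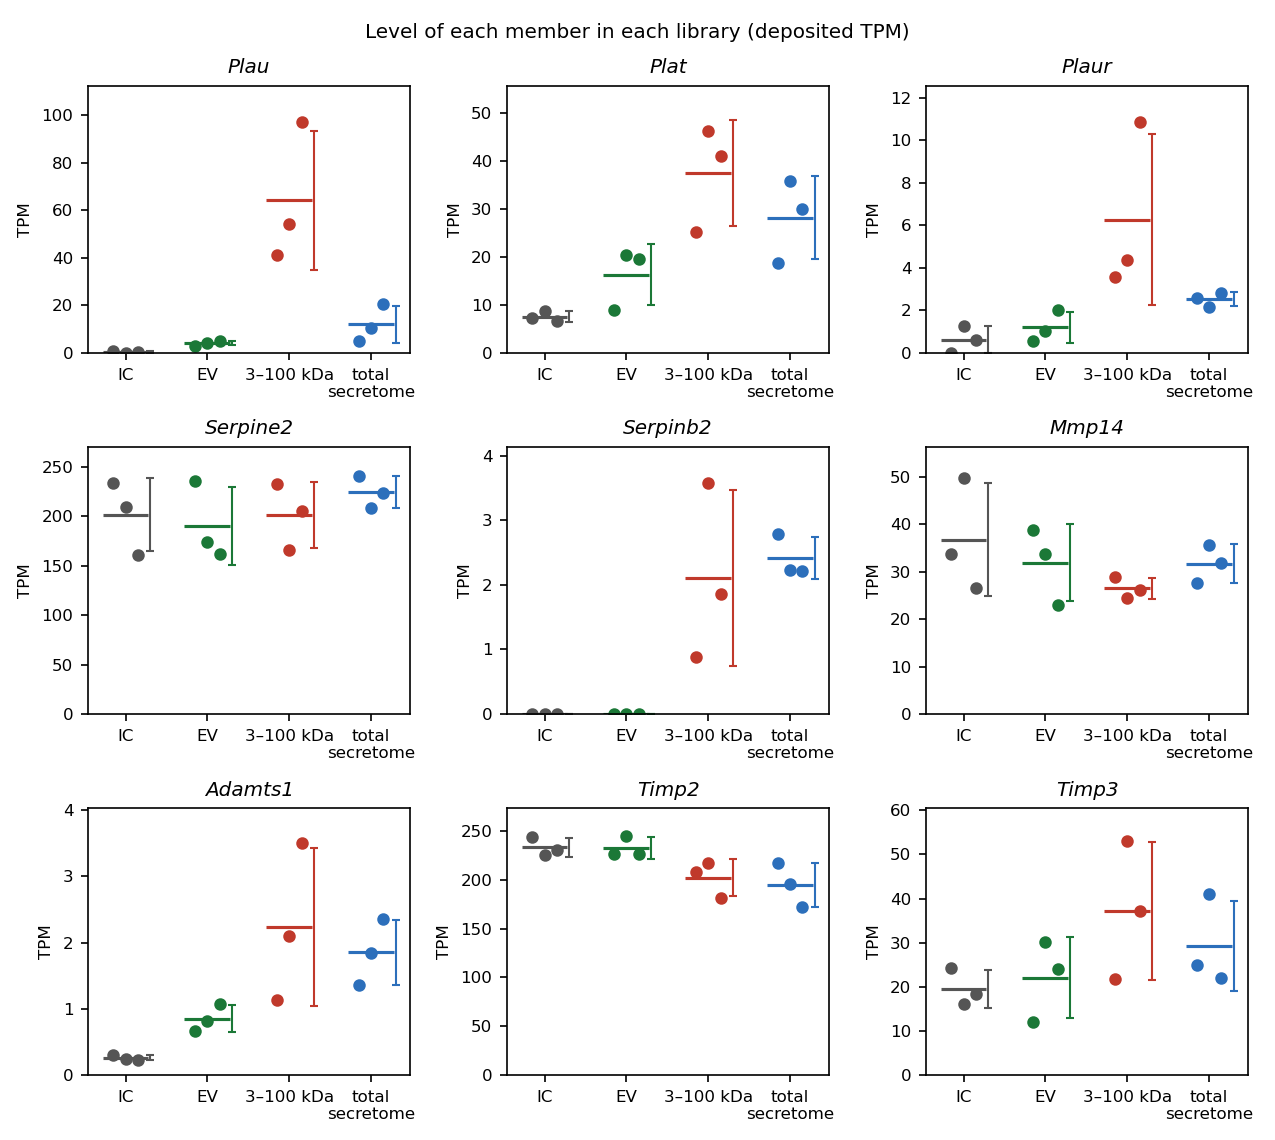
TPM of the 9 genes in each of the 12 libraries (points, linear axes from 0), with the group mean as a horizontal line and ± SD (n = 3, cut at 0) beside it. The group means of Plau, Plaur and Plat were highest with the 3–100 kDa proteins, where the libraries of Plat overlapped those of the total secretome, while Serpine2 and Mmp14 overlapped between all groups.

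Plau, encoding urokinase, showed the largest differences of the set. It was at 0.891, 0 and 0.287 TPM in the 3 IC libraries and at 3.14, 4.24 and 5.0 TPM in the EV libraries. With the 3–100 kDa proteins the values were 41.1, 54.4 and 97.1 TPM, and with the total secretome 5.04, 10.7 and 20.5 TPM. The 4 groups did not overlap with each other, though the highest EV and the lowest total secretome value nearly met, and their order was IC, EV, total secretome and 3–100 kDa proteins. On the scale of log2(TPM + 1), the difference from IC was 1.91 (standard error 0.30) for EV, 5.53 (0.39) for the 3–100 kDa proteins and 3.11 (0.50) for the total secretome. The pseudocount of 1 understates these differences because the IC level was below 1 TPM, and with a pseudocount of 0.1 they were 3.62, 7.5 and 4.97. In bulk RNA, fewer or more cells of a type and less or more RNA per cell cannot be told apart, here and for each level below.

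Plat, encoding tissue plasminogen activator, was already present in IC, at 7.27, 8.86 and 6.71 TPM. The EV libraries had 9.02, 20.5 and 19.6 TPM, of which the lowest was close to the highest IC value. With the 3–100 kDa proteins Plat was at 25.2, 46.3 and 41.1 TPM and with the total secretome at 18.9, 35.9 and 30.0 TPM. Every treated library was thus above every IC library, and the ranges of the latter 2 treatments overlapped. The differences from IC on the log2(TPM + 1) scale were 0.93 (standard error 0.31), 2.15 (0.26) and 1.74 (0.27) for EV, the 3–100 kDa proteins and the total secretome.

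The balance between the 2 activators also differed. Plau made up 10.9%, 0% and 4.10% of the summed Plau and Plat TPM in the IC libraries and 25.8%, 17.1% and 20.3% in the EV libraries. Its share was 62.0%, 54.0% and 70.3% with the 3–100 kDa proteins and 21.1%, 23.0% and 40.6% with the total secretome. Only with the 3–100 kDa proteins did Plau exceed Plat, and it did so in all 3 libraries. The activator sum was 8.01 ± 0.938 TPM in IC, 20.5 ± 7.23 TPM with EV, 102 ± 36.0 TPM with the 3–100 kDa proteins and 40.3 ± 14.3 TPM with the total secretome.

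**Figure D2:**
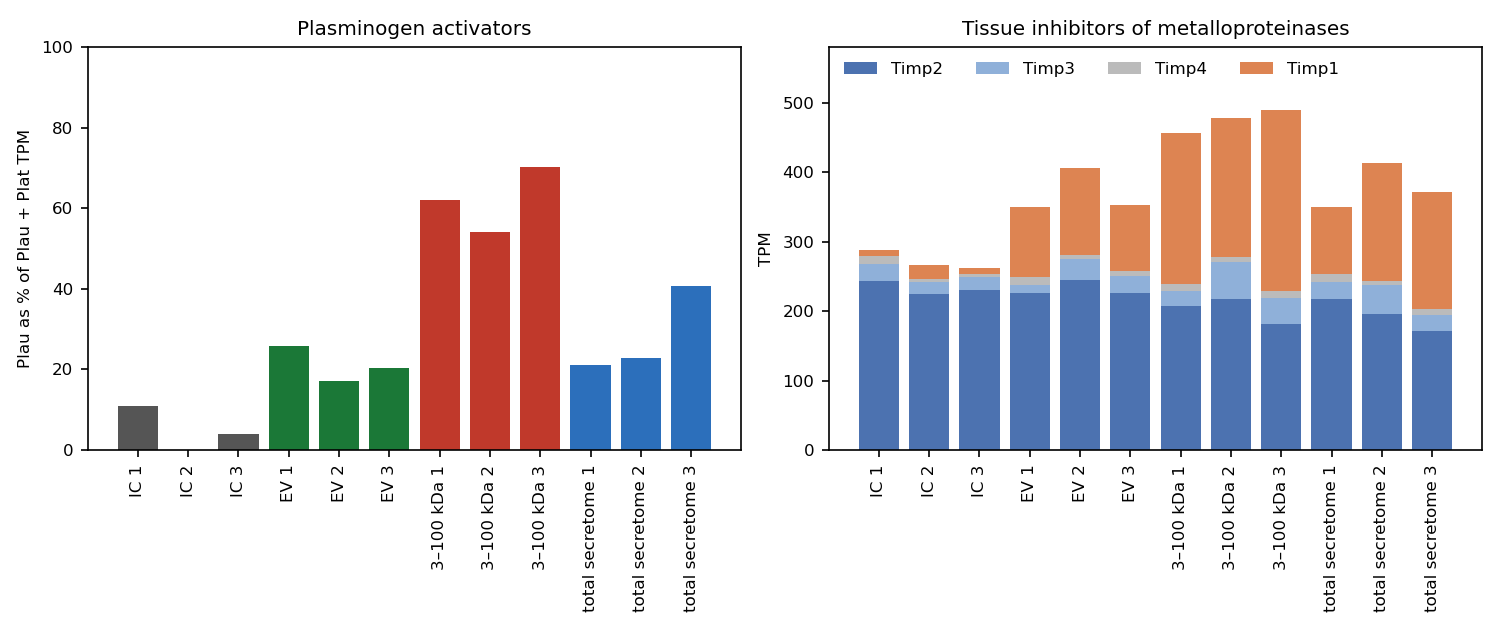
Left, Plau as a percentage of the summed Plau and Plat TPM in each library. Right, TPM of the 4 Timp genes stacked for each library. Plau was above 50% only in the 3 libraries given the 3–100 kDa proteins, and the orange part (Timp1) was larger in all treated libraries than in IC while the dark blue part (Timp2) was between 172 and 245 TPM throughout.

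Plaur, encoding the urokinase receptor, was at 0, 1.26 and 0.599 TPM in the IC libraries and at 0.574, 1.05 and 2.01 TPM with EV, and these groups overlapped. It was at 3.57, 4.38 and 10.9 TPM with the 3–100 kDa proteins and at 2.60, 2.18 and 2.81 TPM with the total secretome. Both groups were above all IC and EV libraries and apart from each other. The differences from IC were 2.12 (standard error 0.47) and 1.20 (0.33) on the log2(TPM + 1) scale. For EV, Plaur did not enter the fit, since fewer than 3 of the 6 rescaled libraries reached 1 TPM.

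The 2 serpins of the set differed from each other. Serpine2, encoding protease nexin-1, an inhibitor of thrombin and of both activators, ranged from 161 to 234 TPM in IC, from 162 to 235 TPM with EV, from 166 to 233 TPM with the 3–100 kDa proteins and from 208 to 241 TPM with the total secretome. Its differences from IC were -0.09 (standard error 0.20), 0.03 (0.18) and 0.19 (0.13) on the log2(TPM + 1) scale. The quotient of Serpine2 over the summed activators was 25.1 ± 3.09 in IC, 11.0 ± 7.25 with EV, 2.22 ± 1.12 with the 3–100 kDa proteins and 6.33 ± 3.25 with the total secretome. Each treated library was below the 3 IC libraries in this quotient. Serpinb2, encoding plasminogen activator inhibitor-2, was listed at 0 in all IC and all EV libraries. It was at 0.885, 3.58 and 1.86 TPM with the 3–100 kDa proteins and at 2.79, 2.23 and 2.22 TPM with the total secretome. It was thus listed above 0 in all 6 libraries given soluble or total material and in none of the other 6, and no fold change is given against a listed 0.

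Among the metalloproteinases, Mmp14, whose product activates other matrix metalloproteinases at the cell surface, ranged from 26.7 to 49.9 TPM in IC and from 23.0 to 38.9 TPM over the treated libraries. The groups overlapped, with differences from IC of -0.19 (standard error 0.27), -0.38 (0.22) and -0.15 (0.23) on the log2(TPM + 1) scale for EV, the 3–100 kDa proteins and the total secretome. Adamts1, encoding a secreted protease that cuts proteoglycans such as aggrecan, was at 0.300, 0.244 and 0.232 TPM in the IC libraries and at 0.660, 0.822 and 1.07 TPM with EV. The values were 1.13, 2.09 and 3.50 TPM with the 3–100 kDa proteins and 1.36, 1.84 and 2.35 TPM with the total secretome. All 9 treated libraries were above the IC libraries. The differences from IC were 1.32 (standard error 0.33) for the 3–100 kDa proteins and 1.18 (0.25) for the total secretome, on levels so low that a pseudocount of 0.1 gave 2.60 and 2.43. For EV, Adamts1 did not enter the fit for the same reason as Plaur.

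The 2 metalloproteinase inhibitors of the set differed less from IC than Plau and Plat did. Timp2 was at 244, 225 and 230 TPM in the IC libraries and at 226, 245 and 227 TPM with EV. It was at 208, 217 and 181 TPM with the 3–100 kDa proteins and at 217, 196 and 172 TPM with the total secretome. The latter 2 groups lay below IC without overlap, by small amounts of -0.18 (standard error 0.11) and -0.24 (0.11) on the log2(TPM + 1) scale, while the EV difference was -0.01 (0.12). Timp3, whose product stays bound to the matrix, ranged from 16.0 to 24.2 TPM in IC, from 12.1 to 30.1 TPM with EV, from 21.7 to 53.0 TPM with the 3–100 kDa proteins and from 22.0 to 41.0 TPM with the total secretome. Its differences of 0.09 (standard error 0.32), 0.86 (0.31) and 0.55 (0.24) came with overlapping libraries.

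**Figure D3:**
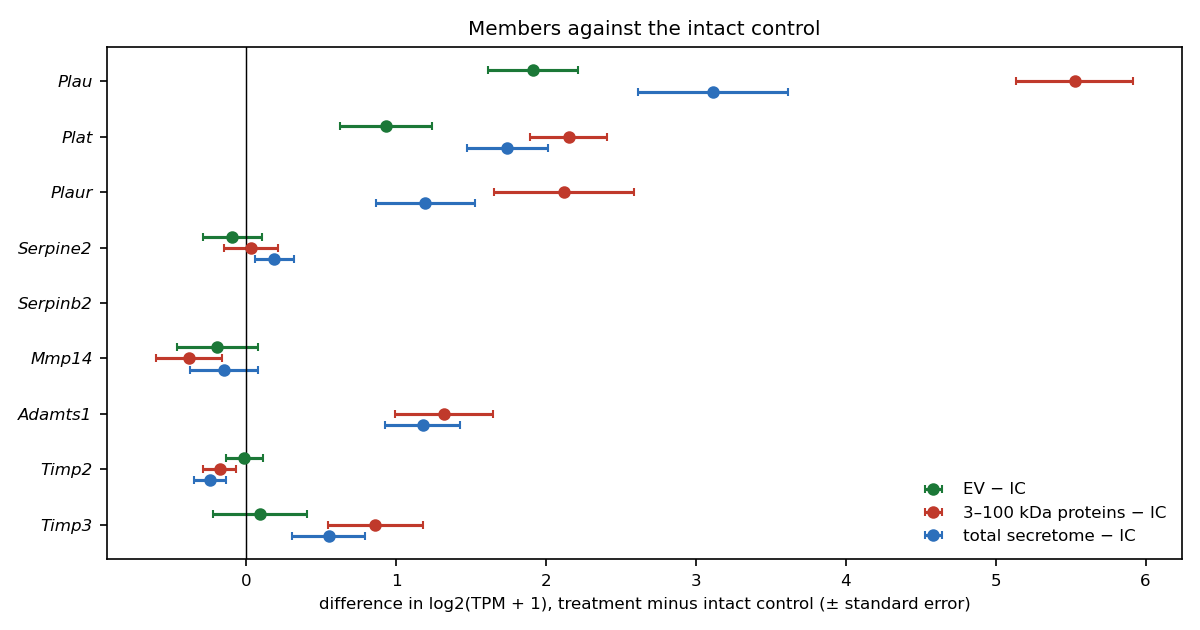
Difference from IC on the log2(TPM + 1) scale for each gene and treatment, with bars of ± 1 standard error (limma, 3 against 3 libraries). Plau had the largest difference in each of the 3 comparisons. Serpinb2 has no point because it was listed at 0 in all IC libraries, and Plaur and Adamts1 have none for EV because they were not in that fit.

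Counted over the set, none of the 6 genes fitted passed an adjusted p of 0.05 (limma, Benjamini-Hochberg) between EV and IC, where 2 had an unadjusted p under 0.05, and 0.102% of the 12749 genes tested were called higher. Plau, Plat and Adamts1 were higher in every EV library than in any IC library. Of these, 2 were among the genes fitted, and 3.22% of all genes fitted were separated in that direction. For the 3–100 kDa proteins, 2 of the 8 genes fitted were called higher than IC (Plau and Plat), against 2.82% of the 12788 genes tested. Libraries were separated upwards for 5 of the 9 (Plau, Plat, Plaur, Serpinb2 and Adamts1), the 4 of them that were fitted standing against 10.7% of all genes, and downwards for Timp2, against 9.88%. For the total secretome, 3 of 9 were called higher (Plau, Plat and Serpinb2), against 1.68% of the 12787 genes tested. The same 5 genes were separated upwards, against 11.4%, and Timp2 downwards, against 8.86%. Plau, Serpinb2 and Adamts1, below 1 TPM in every IC library, entered the fits that held them only through treated libraries. Since the genes were also chosen with such values known, nothing is read from these counts. The 3 comparisons also share the IC libraries. Marker sums of other cell types are given beside them. Of the 10 neuronal, 8 astrocyte and 7 oligodendrocyte lineage markers tested, none was called in any of these 3 comparisons in limma, and at an unadjusted p under 0.05 there were at most 1, 1 and 2. Neuronal markers summed to between 2530 and 2858 TPM with EV, between 2202 and 2488 TPM with the 3–100 kDa proteins and between 2135 and 2614 TPM with the total secretome, and lay below every IC library in the second of these groups. Astrocyte markers summed to between 1276 and 1698, between 1216 and 1613 and between 1407 and 1796 TPM in the same order, each range overlapping IC. Among them Gfap had a mean of 191 TPM in IC and of 490, 333 and 438 TPM after treatment, with the EV libraries above all IC libraries (limma adjusted p of 1.0, 0.356 and 0.269). Oligodendrocyte lineage markers summed to between 193 and 232, between 124 and 189 and between 238 and 265 TPM, the last lying above every IC library. Of the fibroblast and mural markers, Pdgfrb was called lower with the 3–100 kDa proteins (-1.42, limma adjusted p = 0.0234), at 0.551 TPM against 3.21 TPM in IC. It entered that fit through the IC libraries, where it was high, so this call is a description. Pdgfrb was lower than every IC library with EV (-0.90, adjusted p = 0.743) and the total secretome (-0.92, adjusted p = 0.0912) too. Col1a1 of the same list went the other way, with a mean of 0.219 TPM in IC. Its means were 0.839, 1.58 and 1.13 TPM with EV, the 3–100 kDa proteins and the total secretome, above every IC library each time. Against IC it was tested only for the 3–100 kDa proteins, with a difference of 1.10. It entered that fit only through the libraries of the proteins, so no p-value is given for it. Acta2 was listed at 0 in IC and had a mean of 1.2 TPM with the 3–100 kDa proteins, again without overlap. The 10 markers together summed to between 3.4 and 4.41 TPM in IC and to between 2.35 and 4.1, between 3.59 and 4.49 and between 2.66 and 3.56 TPM after treatment. Endothelial markers were too low to be tested and summed to between 0.225 and 0.437 TPM in IC. Their sums were between 0.0751 and 1.06, between 0.917 and 1.16 and between 0.624 and 0.942 TPM after treatment. The 3–100 kDa proteins and the total secretome lay above every IC library here. Microglial markers, not tested against IC either, overlapped IC in each treated group. The part of cell makeup in the differences was not tested.

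These counts also moved with single libraries, and nothing is read from them either way. Between the 3–100 kDa proteins and IC, Plau could not be fitted without any one library of the proteins when 1 TPM was required in 3 libraries, and Plat was called in all 6 omissions. A further setting, chosen after seeing the data, required 1 TPM in only 2 of the remaining libraries. Between the total secretome and IC, no gene of the set was called under that setting without total secretome replicate 2, without total secretome replicate 3 or without IC replicate 1, and only Serpinb2 was called without IC replicate 3.

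Comparisons between treatments ask whether these genes stood at different levels after the vesicles, the soluble proteins and the whole secretome. These contrasts use the same treated libraries from which the genes were known, so differences and counts of calls are again a description. EV libraries had lower Plau than libraries given the 3–100 kDa proteins, by -3.62 on the log2(TPM + 1) scale (standard error 0.36). Plau was the only 1 of 8 genes fitted that was called, where 0.495% of the 12734 genes tested were called lower. The call was lost without EV replicate 2, EV replicate 3 or replicate 2 of the 3–100 kDa proteins, where the difference was -3.61, -3.75 and -3.73. Libraries with the same replicate number deviated together in this comparison, and with the replicate number as a block Plat (-1.21), Plaur (-1.66) and Timp3 (-0.76) were called too. The block raised the calls over all 12734 genes from 68 to 340. Without the block the 95% intervals of these differences ran from -2.04 to -0.38, from -2.72 to -0.59 and from -1.70 to 0.18. Libraries were separated downwards for Plau, Plat, Plaur, Serpinb2 and Adamts1, of which 4 were fitted, against 6.77% of all genes, and upwards for Timp2, against 7.38%.

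Between EV and the total secretome, Serpinb2 was listed at 0 in the 3 EV libraries and was above 2 TPM in the 3 others. It entered the fit only through the latter libraries, and its call, the only 1 among 9 genes fitted where 0.141% of the 12758 genes tested were called lower, is therefore given as a description. The call was lost with the replicate block, where same-numbered libraries again deviated together, with a pseudocount of 0.1 and in all omissions of 1 library but that of EV replicate 1, and in all 6 with 1 TPM required in 2 libraries. Plau differed by -1.20 (95% interval -2.28 to -0.11), Plat by -0.80 (-1.62 to 0.02) and Plaur by -0.73 (-1.41 to -0.05). These intervals are from the fit without the replicate block, and intervals with the block are not given here. Without the block they leave room for differences of more than 1 on this scale as well as for very small ones. Plau, Plaur, Serpinb2 and Adamts1 were separated downwards, against 5.93% of all genes, and Timp2 upwards, against 5.83%.

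Between the total secretome and the 3–100 kDa proteins, none of the 9 genes was called in limma, 2 had an unadjusted p under 0.05, and 0.00787% of the 12713 genes tested were called lower. Plau was lower with the total secretome in every library by -2.41 (95% interval -3.64 to -1.18, without the replicate block). With the replicate block, for libraries whose same-numbered members deviated together, Plau was called, 1 of 5 genes called in all. Without the block, Plaur differed by -0.92 (-1.82 to -0.02), Plat by -0.40 (-1.13 to 0.33), Adamts1 by -0.14 (-0.92 to 0.65) and Serpinb2 by 0.22 (-0.51 to 0.96). Plau and Plaur were separated downwards, against 2.34% of all genes.

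The genes whose profile over the 12 libraries was closest to that of Plau were found by the root mean square distance between profiles, each on the log2(TPM + 1) scale minus its own mean, among 13269 genes. The 5 closest were Fosl1 (distance 0.582), Emp1 (0.790), Hbegf (0.794), Gldn (0.804) and Egr2 (0.836). Fosl1, which encodes an AP-1 subunit, had means of 0.0459 TPM in IC, 5.11 TPM with EV, 29.2 TPM with the 3–100 kDa proteins and 11.8 TPM with the total secretome. Hbegf, encoding a ligand of the EGF receptor, stood at 11.6, 22.2, 132 and 49.3 TPM in the same order. Of the other genes of the set, Plat had rank 63 (1.31), Plaur 72 (1.34), Serpinb2 160 and Adamts1 171, while Timp2 had rank 9029 and Mmp14 10908. These distances describe 12 libraries that fall into 4 groups, and say nothing of shared control.

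**Figure D4:**
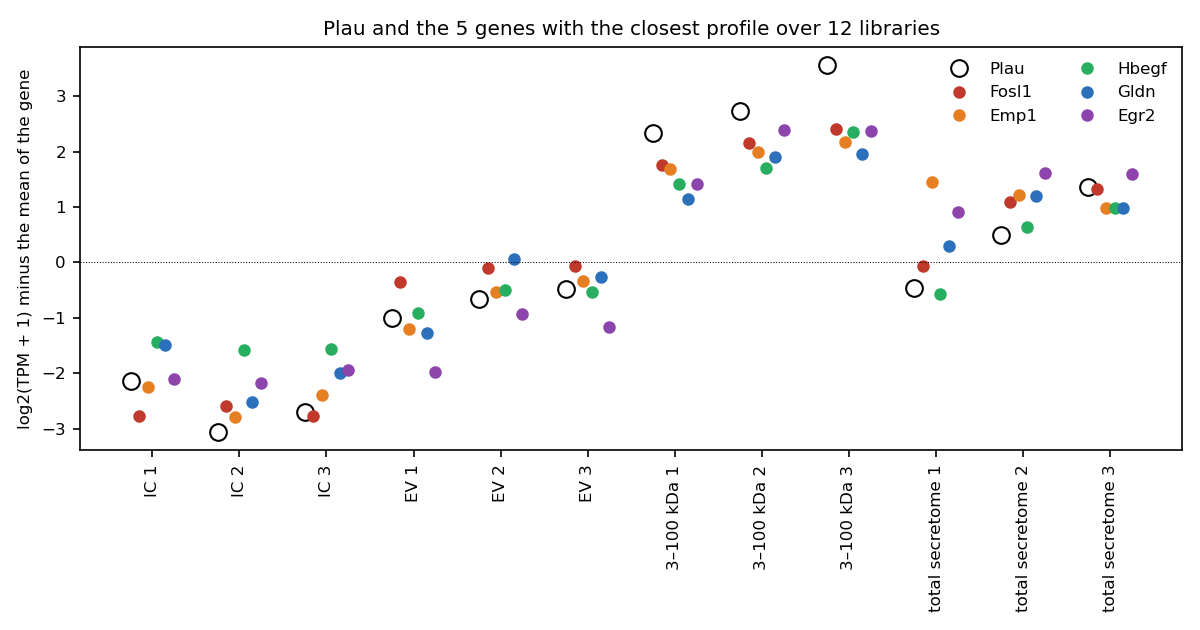
Level of Plau (open circles) and of the 5 genes with the closest profiles (filled circles) in each library, on the log2(TPM + 1) scale minus the mean of the gene. The group means of all 6 genes were lowest in IC and highest with the 3–100 kDa proteins, where Plau was further above its mean than the 5 others in each library.

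The other genes of the pathway were taken from 6 lists. Plg, the gene of plasminogen itself, was between 0.0795 and 0.621 TPM in every library and was not tested. Among 29 genes of activators, receptors and plasminogen binding, 15 could be tested against IC. With the 3–100 kDa proteins 4 were called higher and none lower, where 2.82% of all genes tested were called higher, and with the total secretome 3 and none, where that share was 1.68%. With EV none was called in limma, and 3 had an unadjusted p under 0.05. The median difference of the list was 0.06, 0.06 and 0.09 for EV, the 3–100 kDa proteins and the total secretome, against -0.01, -0.02 and -0.01 over all genes tested. Anxa2 and S100a10, which encode the 2 chains of a surface complex that binds plasminogen, were among the genes called for both the 3–100 kDa proteins and the total secretome. Anxa2 was at 2.72, 3.57 and 1.01 TPM in the IC libraries and at 33.9, 30.7 and 24.8 TPM with the 3–100 kDa proteins, a rise of 3.26 on the log2(TPM + 1) scale (standard error 0.29, limma adjusted p = 0.00213). S100a10 was at 63.1 ± 20.4 TPM in the IC libraries and at 336 ± 18.4 TPM with these proteins, a rise of 2.47 (0.25, adjusted p = 0.00331). With the total secretome the rises were 2.54 (adjusted p = 0.00895) for Anxa2 and 1.88 (adjusted p = 0.0175) for S100a10. Both genes were lower with EV than with the 3–100 kDa proteins, by -1.48 (adjusted p = 0.0222) and -1.53 (adjusted p = 0.0135). Every EV library was above every IC library for both genes, though neither was called there. Anxa2 was at 10.4 ± 2.44 TPM with EV (1.78 above IC, limma adjusted p = 0.184) and S100a10 at 119 ± 16.7 TPM. F3, encoding tissue factor, the starter of clotting, rose by 1.92 (adjusted p = 0.00255) with the 3–100 kDa proteins and by 1.44 (adjusted p = 0.0149) with the total secretome. Its difference with EV was 1.23 (adjusted p = 0.111). Itgb1, the integrin beta 1 gene, completed the list with 1.10 (adjusted p = 0.0467) for the 3–100 kDa proteins, a call lost in 5 of 6 omissions and with the replicate block (adjusted p = 0.120). Eno1, whose product is also a plasminogen binder, had the highest mean of the list, 611 TPM, and was not called.

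Of 26 serpins and other inhibitors of serine proteases in the lists and the files, 10 could be tested for the 3–100 kDa proteins, and 1 was called higher, where 2.82% of all genes tested were. This was Tfpi2, encoding an inhibitor of plasmin and other proteases, which is also in the list of metalloproteinase inhibitors. It was listed at 0 in all IC libraries and was at 2.35, 7.22 and 11.7 TPM with the 3–100 kDa proteins. It entered the fit only through these libraries, so its call is a description and nothing is read from it in the counts of either list. Its values were 0.142, 1.23 and 1.3 TPM with EV and 0.582, 3.39 and 5.55 TPM with the total secretome, so that it was above 0 in all 9 treated libraries. With EV (9 tested) and with the total secretome (9 tested) none of this list was called in limma, and 1 and 3 had an unadjusted p under 0.05. Serpini1, encoding neuroserpin, the inhibitor of tissue plasminogen activator in neurons, had the highest mean of the list, 62.0 TPM, and was not called. Serpinh1, a collagen chaperone, followed at 50.7 TPM.

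Timp1, encoding the inducible tissue inhibitor of metalloproteinases, was in the list of metalloproteinase inhibitors, of which 11 genes were in the files. The list also held matrix proteins such as Sparc. Timp1 was the one called in all 3 comparisons. Of the list, 8 genes were tested for EV, 9 for the 3–100 kDa proteins and 8 for the total secretome, and 1, 2 and 1 were called higher, where 0.102%, 2.82% and 1.68% of all genes tested were. Timp1 was at 9.24, 19.7 and 8.90 TPM in the IC libraries and at 101, 125 and 95.4 TPM with EV. It was at 218, 200 and 260 TPM with the 3–100 kDa proteins and at 97.0, 170 and 169 TPM with the total secretome. Each treated group was thus far above IC. The rises were 3.06 (standard error 0.29, limma adjusted p = 0.0153), 4.17 (0.30, adjusted p = 0.00129) and 3.49 (0.36, adjusted p = 0.00586). The EV call was lost with the replicate block (adjusted p = 0.0636) and in 5 of 6 omissions of 1 library. The share of Timp1 in the summed TPM of the 4 Timp genes was 4.67 ± 2.37% in IC, 28.9 ± 1.83% with EV, 47.6 ± 5.65% with the 3–100 kDa proteins and 38.1 ± 9.27% with the total secretome. The share of Timp2 went from 85.8 ± 1.73% in IC to 42.7 ± 4.86% with the 3–100 kDa proteins. The Timp sum was 272 ± 13.9 TPM in IC and 474 ± 16.7 TPM with these proteins. Sparc (260 TPM over all libraries) and Spock2 (127 TPM), matrix proteins with the highest means of the list, were not called.

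**Figure D5:**
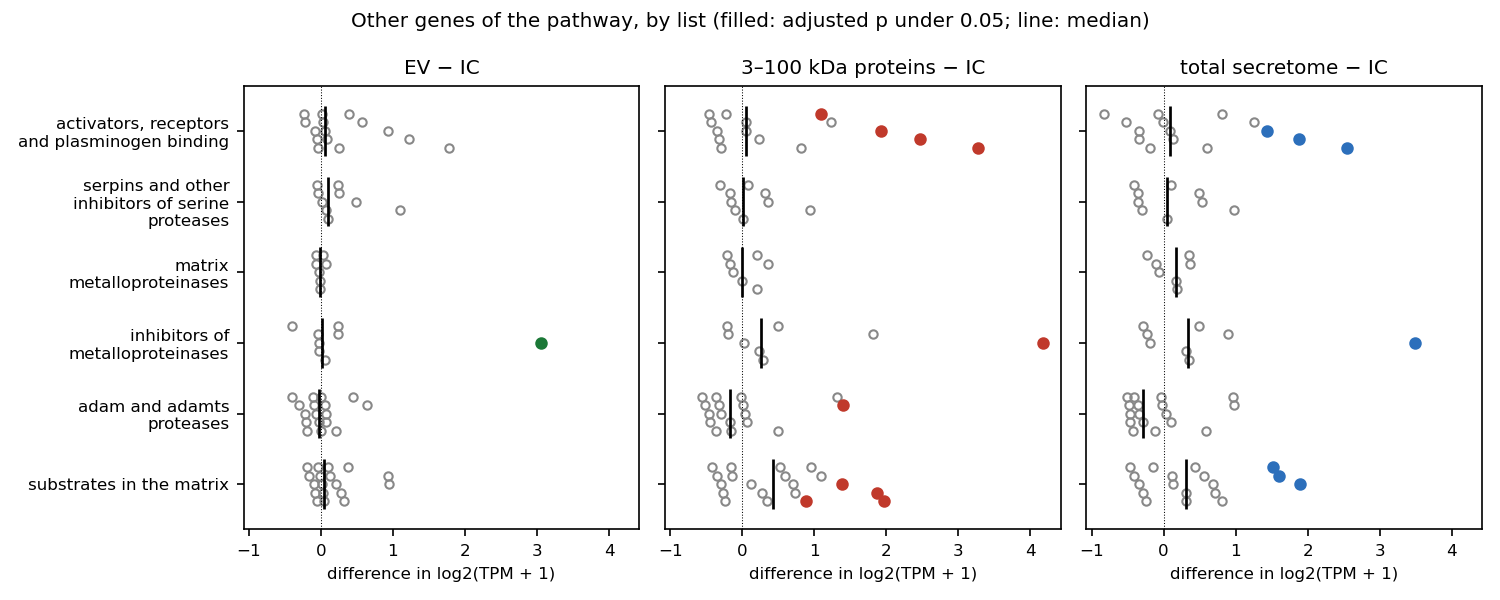
Difference from IC on the log2(TPM + 1) scale for the other genes of the pathway, 1 row per list and 1 panel per treatment. Filled points passed an adjusted p of 0.05 in limma, open points did not, and the short line is the median of the points drawn. Tfpi2 is left out because it was listed at 0 in IC. Filled points lay on the right of 0 in all panels, and the rows of serine protease inhibitors and of matrix metalloproteinases had none.

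No matrix metalloproteinase was called. The list held 18 genes of the files, 17 metalloproteinases and Bsg, which encodes an inducer of them. Of these, 6 metalloproteinases and Bsg could be tested in each comparison with IC, and 0, 0 and 1 had an unadjusted p under 0.05 for EV, the 3–100 kDa proteins and the total secretome (limma). Bsg had the highest mean of the list, 288 TPM, and the neuronal membrane protease gene Mmp24 followed at 105 TPM. Mmp9, a gelatinase known from injured brain, was listed at 0 in all IC libraries and was too low to be tested. It was at 0.316, 0.0932 and 0.351 TPM with the 3–100 kDa proteins and at 0.322, 0.300 and 0.191 TPM with the total secretome. With EV it was at 0, 0 and 0.220 TPM. Of 17 ADAM and ADAMTS genes tested, Adamts9 alone was called, with the 3–100 kDa proteins, where 2.82% of all genes tested were called higher, so the count was near the background. It was at 1.28 ± 0.196 TPM in the IC libraries and at 4.97 ± 1.17 TPM with these proteins, a rise of 1.39 (standard error 0.24, limma adjusted p = 0.0277), with the call lost in 4 of 6 omissions and with the replicate block (adjusted p = 0.0680). Adam22 and Adam10 had the highest means of this list, 37.9 and 32.7 TPM. None of the 17 was called with EV or the total secretome in limma, and 0 and 4 had an unadjusted p under 0.05.

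Among substrates in the matrix and factors that are cut by these proteases, 4 of 20 tested were called higher with the 3–100 kDa proteins, 3 of 18 with the total secretome and none of 18 with EV, where 2 had an unadjusted p under 0.05 in limma. Over all genes tested, 2.82%, 1.68% and 0.102% were called higher in these comparisons. Lamc1, encoding the laminin gamma 1 chain, rose by 1.87 (standard error 0.22, limma adjusted p = 0.00595) and 1.52 (0.18, adjusted p = 0.00895) with the 2 preparations. Bdnf, whose precursor is a substrate of plasmin, was at 1.69 ± 0.833 TPM in IC, 9.08 ± 1.34 TPM with the 3–100 kDa proteins and 8.68 ± 1.87 TPM with the total secretome. These were rises of 1.97 (adjusted p = 0.00653) and 1.89 (adjusted p = 0.0115). Acan, encoding aggrecan, rose by 1.39 (adjusted p = 0.0287) and 1.61 (adjusted p = 0.0242). Col4a1, a basement membrane collagen gene, differed by 0.88 (adjusted p = 0.0378) with the 3–100 kDa proteins, a call lost in all 6 omissions and with the replicate block (adjusted p = 0.125). With the block Acan was lost too for these proteins (adjusted p = 0.0676). After EV, Bdnf was at 4.02 ± 0.729 TPM (0.93 above IC, limma adjusted p = 0.945). Lamc1 was at 18.7 ± 5.84 TPM with EV against 8.85 ± 0.988 TPM in IC. Every EV library was above every IC library for Bdnf and Lamc1, while Acan and Col4a1 overlapped between EV and IC. Ncan and Bcan, proteoglycan genes of the brain matrix, had the highest means of the list, 243 and 153 TPM, and were not called. Medians of the list were 0.43 with the 3–100 kDa proteins and 0.31 with the total secretome, against -0.02 and -0.01 over all genes tested.

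Calls of list genes were repeated without each library in turn, with 1 TPM required in 2 libraries, as chosen after seeing the data. Between the 3–100 kDa proteins and IC, Timp1, Anxa2, S100a10, F3, Lamc1 and Bdnf stayed called in all 6 omissions, with adjusted p-values of at most 0.0485 in limma. Where 1 TPM was required in 3 libraries, Lamc1 was called in 5 of the 6 omissions and the others in all 6. What follows is again for 1 TPM in 2 libraries unless stated. Acan was called only without IC replicate 2 (otherwise up to 0.158), Adamts9 only without replicate 1 of the proteins or IC replicate 2 (up to 0.147), and Itgb1 and Tfpi2 only without replicate 1 of the proteins (up to 0.211 and 0.134). Col4a1 was lost in all 6 omissions, with adjusted p-values from 0.0546 to 0.206. The Timp1 call for EV was kept only without IC replicate 2, and its adjusted p reached 0.141 in the other omissions. For the total secretome, all 7 list genes called were lost without total secretome replicate 2 and without replicate 3, with adjusted p-values of up to 0.0537 for Timp1 and up to 0.145 for Acan. With 1 TPM still required in 3 libraries, Timp1 stayed called in all 6 omissions. With 1 TPM required in 2 libraries, Acan and Bdnf were lost without total secretome replicate 1 too. In that setting F3, Lamc1, S100a10 and Acan were also lost without IC replicate 1, and S100a10 and Acan without IC replicate 3. Between EV and the 3–100 kDa proteins, the call of Anxa2 was kept only without EV replicate 1 (otherwise up to 0.144), and that of S100a10 only without EV replicate 1 or replicate 1 of the proteins (otherwise up to 0.0721).

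Between treatments, Anxa2 and S100a10 were the only genes of the 6 lists called in limma, both between EV and the 3–100 kDa proteins. With the replicate block, for which same-numbered libraries deviated together, 8 further genes of the lists were called lower with EV, among them Timp1 (-1.10, adjusted p = 0.0321 against 0.0606 without the block). The others were Acan, Bdnf, F3, Itgb1, Lamc1, Tfpi2 and Tnc. Over all 12734 genes, 0.495% were called lower without the block, and the block raised the calls in either direction from 68 to 340, so nothing is read from the added calls. Between EV and the total secretome and between the total secretome and the 3–100 kDa proteins, no gene of the lists was called with or without the block, and at most 5 and 2 genes of any 1 list had an unadjusted p under 0.05.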

How the data were processed

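RNA of 12 libraries was sequenced. Per the labels these were strand-specific mRNA libraries sequenced on a DNBSEQ instrument, while the methods of the study describe poly(A) selection and another kit and instrument. According to those methods, the authors used FastQC for read quality, Trimmomatic and Cutadapt for trimming, Salmon for quantification (rn6 transcripts from Ensembl, genome decoy) and tximport for values per gene. The deposited values sum to 1000000 in each library and were taken as TPM. The unit is not named, and depth is unknown, so that no interval for counting error could be given.

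Rows of one name were summed. Within each comparison of 2 groups, TPM was rescaled by median-of-ratios factors (0.909 to 1.08 over all 12 libraries), genes were kept that reached 1 TPM in 3 or more of the 6 libraries, and log2(TPM + 1) was fitted with limma 3.58.1 (lmFit, eBayes with a trend) in R 4.3.3. Genes were called at a Benjamini-Hochberg adjusted p under 0.05 over all genes tested. The limma script was tested on simulated data. Figures and promoter searches used Python 3.11.15. Levels in the text are group means ± SD of the TPM as deposited.

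The 9 genes, the pathway lists and the marker lists were chosen with earlier results of these data known. P-values for the 9 genes had been planned against IC, for the 3–100 kDa proteins and the total secretome, and between treatments, and were left out, because the contrast behind the choice is not recorded. From each pathway list the text names every gene called in any comparison and the 2 with the highest mean TPM, and Plg and Mmp9 were added after their values were seen. The lists named Serpina3n, Serpinb6a, Mmp25, Pcolce2 and Pecam1 too, which were not matched by name, and 1 further gene that is not reported here.

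The labels number the replicates of each group. To see whether a number pairs libraries, the deviation of each library from its group mean was correlated, across genes, with that of its namesake. Against IC, the 3 pairs of EV gave -0.08, -0.18 and 0.54, and those of the 3–100 kDa proteins -0.01, -0.25 and 0.25. These were not read as paired. The total secretome against IC gave 0.25, 0.16 and 0.16. EV gave 0.59, 0.29 and 0.30 against the 3–100 kDa proteins, and 0.26, 0.19 and 0.21 against the total secretome, which in turn gave 0.38, 0.21 and 0.24 against the 3–100 kDa proteins. The latter 4 comparisons were read as paired from the data, since the labels do not say what a number marks. A day of experiment, which the study used as a covariate in a plot, is not given per library in the sources used here.

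Alternatives were a pseudocount of 0.1, no filter, no rescaling, 1 fit of all 12 libraries, a replicate block, the highest row of a name alone and leaving out each library.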

Additional observations from a re-analysis of the deposited data

How the results depend on the processing

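Several counts of genes called moved with the fit. In 1 fit of all 12 libraries, 5 of the 9 genes were called between the 3–100 kDa proteins and IC in place of 2 (Plaur, Serpinb2 and Adamts1 in addition), and 2 in place of 1 between EV and these proteins. The same fit called 3 genes of the pathway lists in place of 1 for EV against IC. Over all genes, this fit raised the calls from 423 to 912 between the 3–100 kDa proteins and IC. It raised them from 68 to 182 between EV and these proteins and from 18 to 58 between EV and IC. Nothing is read from the added calls. With the replicate block, 0 list genes were called for EV against IC, and 7 in place of 11 for the 3–100 kDa proteins against IC, where the numbers were not read as paired. Over all genes, the block moved the calls from 18 to 0 and from 423 to 193 in these comparisons. The block called 4 of the 9 genes between EV and the 3–100 kDa proteins, and 340 of all genes in place of 68. It called 0 between EV and the total secretome and 1 between the total secretome and the 3–100 kDa proteins. In the latter 3 comparisons the blocked calls are given with the results, and the block moved no other count of the 9 genes. With a pseudocount of 0.1 the count between EV and the total secretome was 0. Without a filter on low values, 3 of the 9 genes were still called between the total secretome and IC, but Adamts1 in place of Plau. The causes were not tested.

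Without each library in turn, the number of the 9 genes called ranged from 0 to 0 for EV against IC, from 1 to 4 for the 3–100 kDa proteins against IC, from 0 to 4 for the total secretome against IC, from 0 to 1 between EV and either other treatment and from 0 to 0 between the latter treatments. List genes called ranged from 0 to 1, from 5 to 10 and from 0 to 11 in the comparisons of EV, the 3–100 kDa proteins and the total secretome with IC. Over all genes, calls in the same omissions ranged from 0 to 31, from 83 to 484 and from 31 to 809. They ranged from 2 to 75 between EV and the 3–100 kDa proteins and from 0 to 64 between EV and the total secretome. Between the latter treatments they ranged from 0 to 7. Nothing is read from the movement of the smaller counts. With 1 TPM still required in 3 libraries, Plau could not be fitted against IC without a library of either of the last treatments, since 2 such libraries remained. The lowest count of list genes for the 3–100 kDa proteins was 5, or 6 with 1 TPM required in 2 libraries, and the highest 9 and 10. Signs turned for 9 differences, none of them called with all libraries. Against IC these were EV Mmp14 (-0.37 to 0.036), EV Timp2 (-0.045 to 0.029), EV Timp3 (-0.13 to 0.44), Serpine2 with the 3–100 kDa proteins (-0.064 to 0.21) and Mmp14 with the total secretome (-0.30 to 0.078). Mmp14 between EV and the total secretome ranged from -0.20 to 0.17, with 0.17, 0.049 and 0.028 without EV replicate 3, total secretome replicate 2 and replicate 3. Between the total secretome and the 3–100 kDa proteins, Serpine2 ranged from -0.010 (without replicate 2 of the proteins) to 0.25, Serpinb2 from -0.10 (replicate 1 of the proteins) to 0.52 and Adamts1 from -0.42 to 0.18, with 0.025 and 0.18 without total secretome replicate 1 and replicate 3 of the proteins. With 3 libraries a group and TPM without depth, small differences of genes below 1 TPM (Plau, Plaur, Adamts1 and Serpinb2 in IC) cannot be resolved.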
